A study of Mus musculus with 6 samples.

Results

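The C/EBP proteins and a small set of other transcription factors steer blood progenitors towards granulocytes or monocytes, and their transcripts were followed here in sorted mouse marrow progenitors with reduced Ercc1. The genes were Cebpa, Cebpb, Cebpd, Cebpe and Cebpg of the C/EBP family, with Irf8, Gfi1, Spi1 and Klf4. A probe set, the group of short probes on the array that reports on a transcript, was taken where the platform annotation gives it exactly 1 symbol, equal to that of the gene. This found 14 probe sets, of 45037 in all that are not controls, for 8 of the 9 genes. Cebpe is not analysed here. The brightest probe set of each gene by its mean over all 6 arrays served as the main one.

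The sorted population was LSK, marrow cells without lineage markers but with Sca-1 and c-Kit on their surface, among which blood stem cells are found. The Ercc1-deficient group had 3 samples, all of genotype -/d, with 1 knockout allele and 1 truncated allele (d) of Ercc1, a subunit of a DNA repair endonuclease. The Ercc1-proficient group had 3 samples from litter mates, of genotype +/+ in litters 1 and 2 and +/d in litter 3, so that control also carried a truncated allele. Mice of both groups were F1 animals of a C57BL/6 x FVB/n cross, aged 22 weeks in litter 1 and 20 weeks in litters 2 and 3. The number of mice behind a sample is not stated in the labels. The question was what reduced Ercc1 function changes in these progenitors, and the comparison was made within litters.

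C/EBP proteins bind DNA as dimers through a basic region and a leucine zipper. C/EBPα is needed for multipotent progenitors to become granulocyte-monocyte progenitors, C/EBPβ drives granulocyte production under stress, and C/EBPδ is induced in inflammation and in maturing granulocytes. C/EBPγ lacks an activation domain of its own and acts as a dimer partner. PU.1, the product of Spi1, opens the myeloid programme. IRF8 and KLF4 favour monocytes, and GFI1, a zinc-finger repressor, favours neutrophils and limits stem cell division.

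Signals are MAS5 values on a linear scale with a floor of 30. Between 52.3% and 58.6% of the signals of an array lay at that floor, and 3 arrays per group limit the precision. Ercc1 itself fell by 1.36 on the log2 scale in deficient cells (limma with litter as a block, adjusted p = 0.0138). Spiked-in bacterial and phage control transcripts averaged higher on the deficient array of each litter, at 11.7 to 12.6 log2 units in deficient arrays and 11.3 to 11.7 in proficient arrays. Among LSK markers, Kit was above the floor on all 6 arrays, at 125, 95.8 and 92.2 in deficient litters 1 to 3, against 231, 123 and 151 in proficient ones. Its log2 difference of -0.53 did not pass (limma with litter as a block, adjusted p = 0.380). Kit, Cd34, Procr and Flt3 were the 4 markers lower in all 3 litters, where 17.0% of all tested probe sets were. Ly6a, which encodes Sca-1, is not analysed here. Of 6 measured LSK markers 2 fell, Procr at 152, 117 and 63.1 in deficient litters 1 to 3, against 353, 213 and 219 in proficient ones, and Flt3 at 90.5, 105 and 105 against 310, 221 and 197, where 0.520% of all tested probe sets were called lower. With quantile normalization 0 of the 6 passed. Cd48 had a log2 difference of 0.76 and did not pass (limma with litter as a block, adjusted p = 0.153). In such bulk samples, fewer cells of a type and less RNA per cell cannot be told apart.

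Promoter sequence was at hand for 6 of the genes, Cebpa, Cebpb, Cebpg, Gfi1, Irf8 and Klf4, in 8 windows of 250 bases upstream of an annotated start (RefSeq, GRCm38.p6). Each window was searched on both strands for letters linked to these factors, by binding or, for the CCAAT box, by the family name. The C/EBP motif TTGCNNAA stood in 1 of the 8 windows, at 143 bases upstream of a Gfi1 start, and in 9.6% of all 32851 windows. The shorter C/EBP core TTGCG, which can overlap that motif, stood in 1 window, at 185 bases upstream of Cebpa, and in 14.5% of all. The CCAAT box, which gave the family its name, stood in 2 windows and in 33.8% of all, and Cebpg held it at 89 and at 28 bases upstream, both times on the opposite strand. The GC box GGGCGG, bound by KLF and Sp factors, stood in 3 windows, those of Cebpb, Irf8 and Klf4, and in 32.7% of all. The GFI1 core AAATCA stood in both Irf8 windows and in 12.4% of all, while the PU.1 core GAGGAA (23.3% of all) and the IRF repeat, GAAA and again GAAA after 2 free bases (3.0%), stood in 0 of the 8. A match is a description of the letters and shows no binding.

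The member windows with the C/EBP letters, and that of Cebpg with its CCAAT boxes, are shown with Ngp, a neutrophil granule gene described as a C/EBP target, which is among the genes that rose below. Capitals mark TTGCG in Cebpa (chr7:35119043-35119292, plus strand), CCAAT read on the opposite strand in Cebpg (chr7:35056567-35056816, minus strand), and TTGCNNAA in Gfi1 (chr5:107725806-107726055, minus strand) and in Ngp (chr9:110419558-110419807, plus strand), where the second match lies on the opposite strand. All are written 5′ to 3′ in the direction of the gene.
Cebpa: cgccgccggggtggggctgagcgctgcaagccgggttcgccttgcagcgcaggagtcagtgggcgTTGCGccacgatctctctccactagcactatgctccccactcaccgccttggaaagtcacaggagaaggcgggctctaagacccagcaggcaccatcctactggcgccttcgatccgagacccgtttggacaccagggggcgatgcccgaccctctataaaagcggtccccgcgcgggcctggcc
Cebpg: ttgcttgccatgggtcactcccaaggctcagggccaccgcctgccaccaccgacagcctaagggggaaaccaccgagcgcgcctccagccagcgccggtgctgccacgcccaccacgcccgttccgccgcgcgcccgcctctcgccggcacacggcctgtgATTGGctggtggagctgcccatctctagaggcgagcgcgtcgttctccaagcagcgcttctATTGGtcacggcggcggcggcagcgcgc
Gfi1: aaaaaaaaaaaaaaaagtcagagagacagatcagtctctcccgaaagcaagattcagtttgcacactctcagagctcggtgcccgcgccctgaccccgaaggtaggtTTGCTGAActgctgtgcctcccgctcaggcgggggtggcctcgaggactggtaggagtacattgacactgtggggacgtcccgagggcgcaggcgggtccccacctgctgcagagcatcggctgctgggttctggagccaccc
Ngp: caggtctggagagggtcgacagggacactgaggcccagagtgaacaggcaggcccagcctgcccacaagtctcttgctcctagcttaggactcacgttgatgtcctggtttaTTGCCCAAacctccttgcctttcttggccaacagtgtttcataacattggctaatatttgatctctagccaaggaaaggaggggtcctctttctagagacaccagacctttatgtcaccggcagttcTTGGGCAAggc

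None of the regulators passed the test. Of the 13 probe sets bright enough to be tested, limma with litter as a block called 0 at an adjusted p under 0.05, where it called 0.835% of all 22519 tested probe sets, 0.315% as higher and 0.520% as lower. At an unadjusted p under 0.05 there were 4 of the 13, against 11.5% of all: both probe sets of Cebpd, the main one of Cebpg and that of Gfi1. Without a litter term the count was again 0, and the smallest unadjusted p was 0.0758, for Gfi1. All 8 main probe sets were tested, with a median log2 difference of 0.24 and a range of -0.51 to 0.72, beside a median of -0.03 over all tested probe sets. By litter, 2 of the 8 were higher in the deficient array all 3 times (11.3% of all tested) and 1 was lower all 3 times (17.0% of all tested). The other 5 differed in sign, or had no difference in at least 1 litter.

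**Figure D1:**
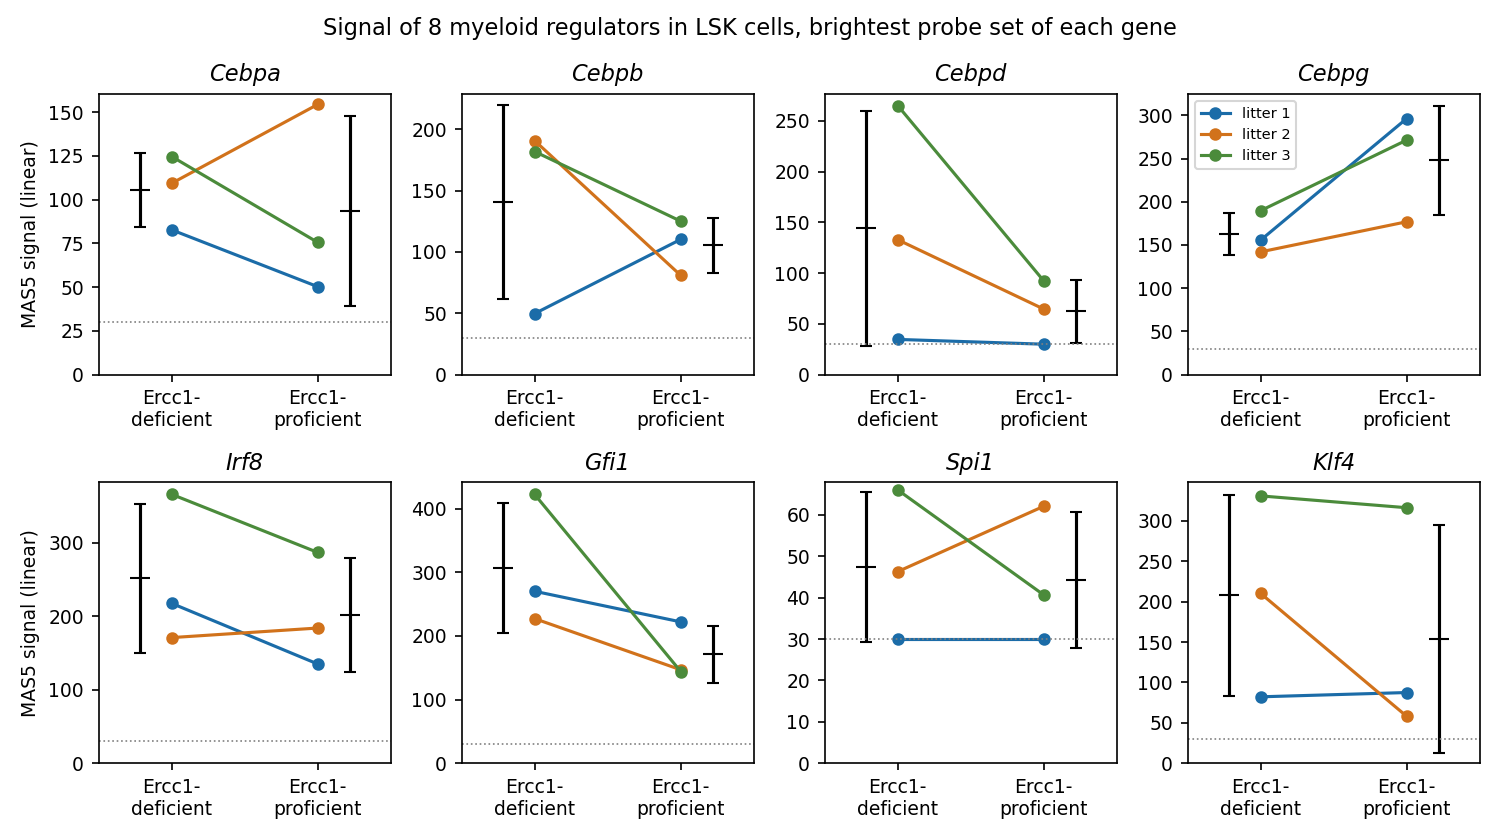
Signal (MAS5, linear axis from 0) of the brightest probe set of 8 regulators, Ercc1-deficient at left and Ercc1-proficient at right of each panel; points are arrays, lines join litter mates, black bars are means ± SD (n = 3) and the dotted line is the floor of 30. All 3 lines run higher at the deficient end for Cebpd and Gfi1 and lower for Cebpg; the other 5 genes have lines of mixed direction, or flat at the floor.

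Cebpa, the factor of entry into the granulocyte-monocyte lineage (1418982_at), had signals of 82.8, 109 and 125 in deficient litters 1, 2 and 3, against 50.3, 154 and 75.6 in proficient ones. The deficient array was the higher in litters 1 and 3 and the lower in litter 2, and the proficient values spanned the deficient ones. Deficient cells averaged 106 ± 21.2 and proficient cells 93.5 ± 54.4 (SD, n = 3 each). This made a log2 difference of 0.21, with a 95% interval of -0.31 to 0.73 (limma with litter as a block, adjusted p = 0.774).

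Cebpb, the factor of stress granulopoiesis (1418901_at), measured 49.8, 191 and 182 in deficient litters 1, 2 and 3, against 110.2, 80.8 and 125 in proficient ones. Litter 1 ran opposite to the others, with a deficient-over-proficient ratio of 0.452 there, 2.36 in litter 2 and 1.45 in litter 3. The log2 difference was 0.21, with an interval of -0.38 to 0.80, and without litter 2 it was -0.18. The second Cebpb probe set (1427844_a_at) was at 30 on all 6 arrays and was not tested.

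Cebpd, the inflammation-induced member, was the C/EBP gene with the largest positive difference. Its main probe set (1423233_at) had signals of 34.7, 133 and 265 in deficient litters 1, 2 and 3, against 30, 64.6 and 92.3 in proficient ones. The proficient array of litter 1 was at the floor, so the deficient array was at least 1.16-fold higher there; it was 2.06-fold and 2.87-fold higher in litters 2 and 3. The groups overlapped, since the deficient signal of litter 1 was also close to the floor. The log2 difference was 0.72 ± 0.25 (standard error), with an interval of 0.20 to 1.24 (limma with litter as a block, adjusted p = 0.236).

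The second Cebpd probe set (1456605_at) gave 88.2, 92.5 and 79.5 in deficient cells, against 39.2, 68.5 and 50.6 in proficient cells. Here the groups did not overlap, as for 7.19% of all tested probe sets, and all 6 arrays lay above the floor. Its log2 difference was 0.51 ± 0.22 (standard error; limma with litter as a block, adjusted p = 0.365). The 2 probe sets thus had the same sign in every litter.

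Cebpg, the dimer partner without an activation domain, was the regulator with a lower main value in deficient cells. The main probe set (1425262_at) gave 156, 142 and 189.7 in deficient litters 1, 2 and 3, against 296, 177 and 271 in proficient ones. The deficient array was the lower in each litter, with ratios of 0.525, 0.803 and 0.699, and the groups overlapped through litter 3 of the deficient and litter 2 of the proficient arrays. The log2 difference was -0.51 ± 0.23 (standard error), with an interval of -0.99 to -0.03 (limma with litter as a block, adjusted p = 0.392).

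The other Cebpg probe sets did not repeat that difference. The second (1451639_at) measured 46.3, 67.6 and 121 in deficient cells and 76.3, 57.4 and 102 in proficient cells, lower in litter 1 and higher in litters 2 and 3. Its log2 difference was -0.04, with an interval of -0.52 to 0.44. The third (1425261_at) was at 30 on all arrays but the proficient one of litter 3, at 47.0. Averaging the 3 probe sets gave a log2 difference of -0.22.

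Gfi1, the neutrophil-side repressor, had 1 probe set (1417679_at), with signals of 270.1, 227 and 422 in deficient litters 1, 2 and 3 and of 222, 147 and 144 in proficient ones. The groups did not overlap, as for 7.19% of all tested probe sets, though the lowest deficient value, in litter 2, lay close to the highest proficient one, in litter 1. The means were 306 ± 103 and 171 ± 44.3 (SD, n = 3 each) in deficient and proficient cells. The log2 difference was 0.72 ± 0.25 (standard error), with an interval of 0.21 to 1.23, and did not pass (limma with litter as a block, adjusted p = 0.223). Litter 3 had the largest ratio, 2.93, and without it the log2 difference was 0.40.

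Irf8, the monocyte-side factor, had signals of 217, 171 and 366 for its main probe set (1416714_at) in deficient litters 1, 2 and 3, against 135, 184 and 287 in proficient ones. The deficient array was the higher in litters 1 and 3, and the log2 difference of 0.27 had an interval of -0.21 to 0.75. The second probe set (1448452_at) gave 122, 143 and 116 in deficient cells, against 54.7, 117 and 148 in proficient cells. Its log2 difference was nearly the same, 0.26, but here the deficient array was the lower in litter 3 and not in litter 2.

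Spi1, which encodes PU.1, had a weak probe set (1418747_at) at 30, 46.3 and 66.0 in deficient litters 1, 2 and 3, against 30, 62.1 and 40.7 in proficient ones. Both arrays of litter 1 were at the floor, and the other litters had opposite signs. Spi1 had a log2 difference of 0.06, with an interval of -0.32 to 0.43 on a scale that understates changes of weak signals. Its sign turned without litter 3, at -0.14.

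Klf4, a factor of monocyte differentiation, had a wide span over the proficient arrays. The main probe set (1417394_at) gave 82.2, 210.3 and 331 in deficient litters 1, 2 and 3, against 87.5, 58.0 and 316 in proficient ones. Litter 2 alone carried a difference, with a ratio of 3.62 beside 0.939 and 1.05 in litters 1 and 3. Its log2 difference was 0.48, with an interval of -0.09 to 1.05, and it was -0.0034 without litter 2. The second probe set (1417395_at) gave 44.2, 78.4 and 98.7 in deficient cells, against 80.2, 42.5 and 65.0 in proficient cells, with a log2 difference of 0.15.

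**Figure D2:**
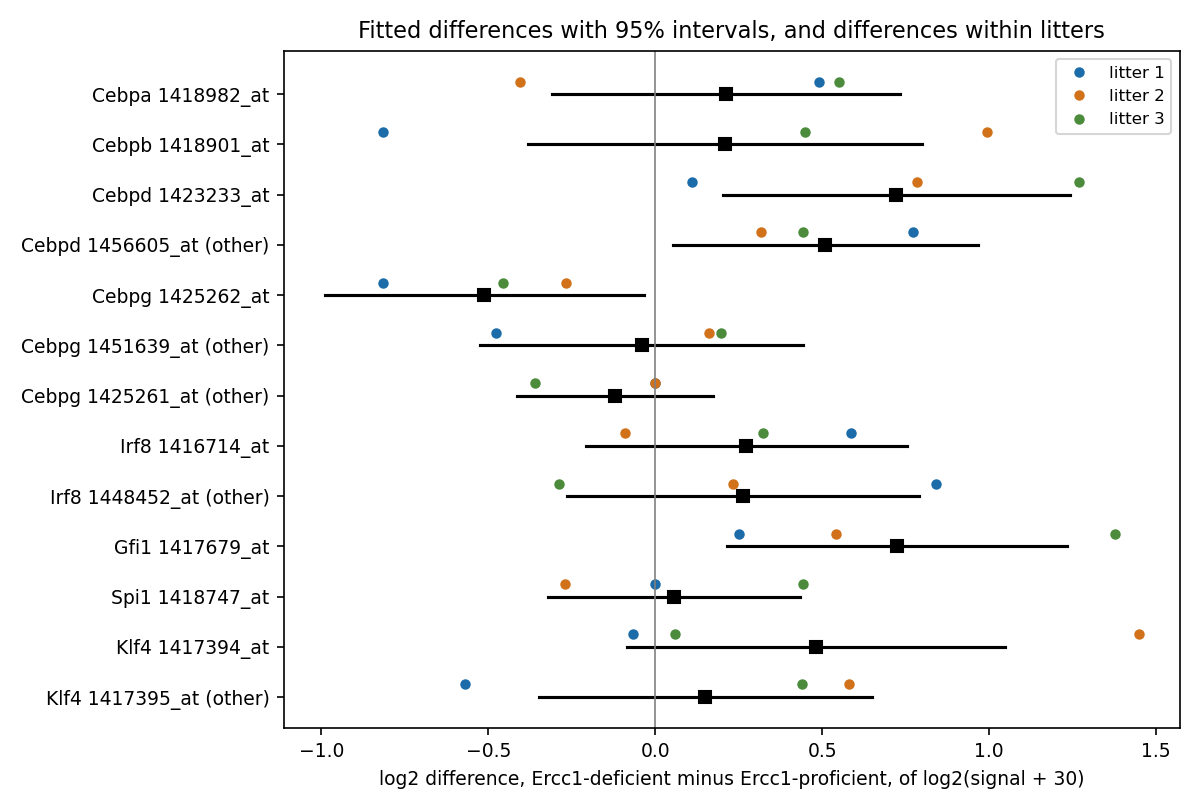
Log2 difference, Ercc1-deficient minus Ercc1-proficient, for the 13 tested probe sets of the regulators; black squares and lines are fitted values with 95% intervals, coloured points the differences within litters 1 to 3 (those of litters 1 and 2 coincide at 0 for the third Cebpg probe set). The intervals of both Cebpd probe sets, the main Cebpg one and Gfi1 leave out 0, and 0 of the 13 passed after adjustment over 22519 probe sets. Interval widths rest partly on a spread shared over probe sets.

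The regulators differed also among the proficient arrays alone. The median ratio of the highest to the lowest proficient array was 2.10 over the 8 main probe sets, beside 1.83 over all tested probe sets. Litter, single array and the +/d genotype of litter 3 cannot be told apart here. The highest proficient array was 5.45 times the lowest for Klf4, 3.07 times for Cebpa, 2.13 times for Irf8 and 1.68 times for Cebpg. For Cebpb it was 1.55 times and for Gfi1 1.54 times the lowest. The lowest proficient array was at the floor for Cebpd and Spi1, whose spans were thus at least 3.08-fold and 2.07-fold.

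Summed signals of markers of monocytes and of mature neutrophils ordered the arrays as the main Cebpd probe set did, though single marker genes differed. The summed signal of 11 such markers was 5929.95, 33515 and 88253 in deficient litters 1, 2 and 3, against 587, 6106 and 18839 in proficient ones, with deficient-over-proficient ratios of 10.1, 5.49 and 4.68, genes at the floor being counted at 30. Placed in order of that sum, the 6 arrays stood in the same order as by the main Cebpd probe set, and in another order by the second one. Much of that sum came from S100a8 and S100a9. They stood at 20987 and 10039 of the 33515 in deficient litter 2, and at 182 and 106 of the 587 in proficient litter 1. Deficient litter 1 and proficient litter 2 were close in that sum, and S100a8 (3005 and 3855) gave them the same order. S100a9 (1933 and 1772), Camp (358 and 132), Ngp (175 and 97.9) and Chil3 (249 and 64.1) placed deficient litter 1 above proficient litter 2. So did the weaker Ltf (39.5 and 30) and Mmp9 (50.1 and 35.9), while Lcn2 was at 30 on both. Monocyte and macrophage markers, whose sums were 1287, 3045 and 3322 in deficient litters 1, 2 and 3, against 798, 1651 and 2437 in proficient ones, gave the order of the main Cebpd probe set. So did the sums of the C/EBP target list and of the PU.1 or IRF8 target list described below. Most of the neutrophil markers are on the former list and most of the monocyte markers on the latter, so these sums are not independent. Signals of 18S rRNA, at 7.26, 10.4 and 11.8 log2 units in deficient litters 1, 2 and 3, against 7.21, 9.51 and 11.2 in proficient ones, were higher on the deficient array of each litter. They gave nearly the order of the main Cebpd probe set, with proficient litter 3 above deficient litter 2. Of the 11 markers, the defining genes Mmp8, Cxcr2 and Itgam were at the floor on all 6 arrays, and all 8 that were tested had higher fitted values in deficient cells. The part of these markers and of 18S in the Cebpd values was not tested. Of the monocyte and macrophage markers, Cd14 was at the floor on all 6 arrays; of the 9 tested, 2 rose, F13a1 and Ccr2, while Ms4a6c had a log2 difference of 0.66 and did not pass.

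**Figure D3:**
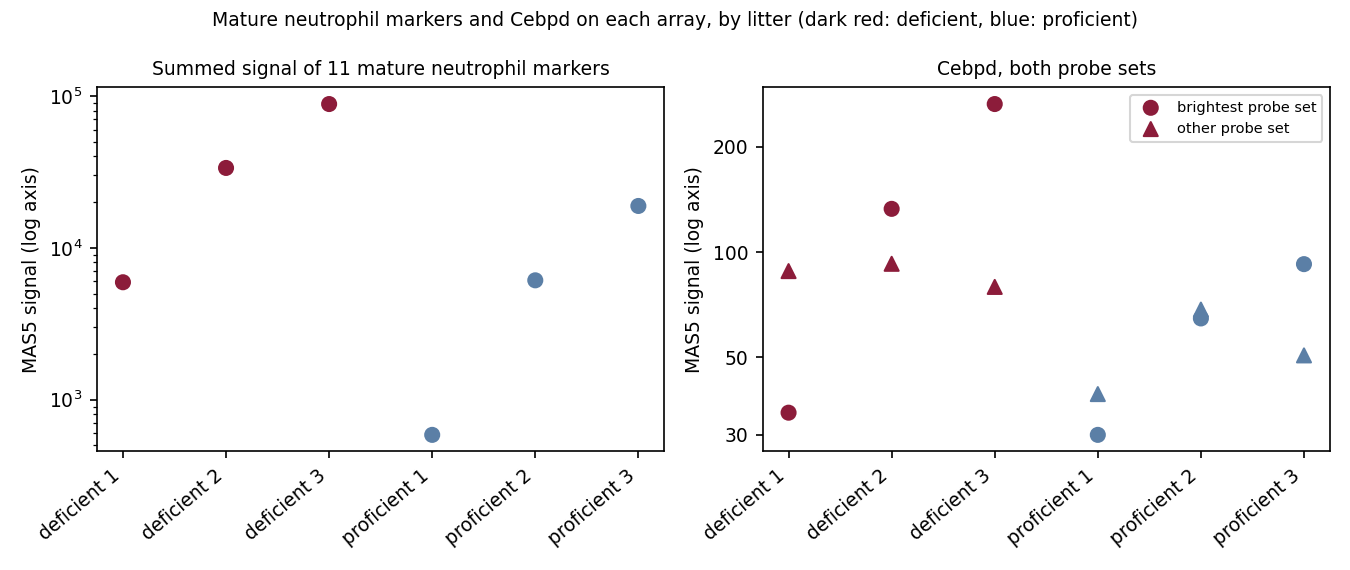
Left, summed signal of 11 mature neutrophil markers on each array; right, signal of both Cebpd probe sets (circles, brightest; triangles, the other), each on a log axis, with deficient litters 1 to 3 left of proficient litters 1 to 3. Both the sum and the main Cebpd signal are highest in deficient litter 3 (88253 and 265) and lowest in proficient litter 1 (587 and 30).

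Markers of other cells were checked in the same way. Lymphocyte markers summed to between 286 and 385 in deficient arrays and between 276 and 315 in proficient arrays, with Cd79a, Cd3g and Cd4 at the floor on all 6. Of their 5 tested genes 0 passed, and Cd8a, Cd3e and Cd3d had the smallest p, with log2 differences of 0.37, 0.33 and 0.26. Cd8a was above the floor only on the deficient array of litter 2, at 98.4. Cd3e was at 90.5 on the deficient array of litter 1 and at most 31.3 on any other. Erythroid and megakaryocyte markers had Hba-a1 and Alas2 at the floor throughout and 0 of 6 called, with Pf4 at 0.84, Ppbp at -0.23 and Gp9 at -0.18 on the log2 scale. Mast cell, basophil and eosinophil markers had 0 of 8 called, with Cpa3 at 0.84, Mcpt8 at 0.46 and Ms4a2 at 0.43.

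Among genes described as C/EBP targets in granulopoiesis, some rose in deficient cells. Of 21 with a probe set, 19 were tested and 9 rose (limma with litter as a block, adjusted p from 1.7e-06 to 0.0144), where 0.315% of all tested probe sets were called higher, and 0 fell. With no filter on signal 0 were called, here and over all probe sets. The median log2 difference was 1.24, beside -0.03 over all tested. The 9 were Camp, Ngp, Chil3, Hp, S100a8, S100a9, Ctsg, Prtn3 and Cst7. Hp, the acute-phase protein haptoglobin, had signals of 75.1, 402 and 982 in deficient litters 1, 2 and 3, against 30, 83.8 and 200.2 in proficient ones, and so was higher in each litter. Prtn3, the granule protease proteinase 3, measured 1164, 9410 and 6592 against 324, 4036 and 3897 in the same order of litters. Of the 9, 5 were also on the mature neutrophil list, so the marker sums above move with this group as well, and so do the 18S signals, whose part was not tested.

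Csf3r, the receptor for G-CSF and a classical C/EBP target, was the 1 tested gene lower in all 3 litters, at 172, 140.2 and 218 in deficient litters 1, 2 and 3, against 290.2, 198 and 248 in proficient ones. It was singled out after its values were seen, and its log2 difference of -0.42 did not pass (limma with litter as a block, adjusted p = 0.512). Of the 8 targets that rose and had a promoter window, 2 held the motif TTGCNNAA, Ngp and S100a9, beside 9.6% of all windows. The PU.1 core GAGGAA stood in 3 of the 8, Ctsg, Prtn3 and S100a8, beside 23.3% of all.

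Genes described as PU.1 or IRF8 targets in monocytic cells had a median log2 difference of 0.18, and 3 of 17 tested rose and 0 fell, where 0.315% of all tested probe sets were called higher. The count was 1 with no variance trend and 0 with no filter on signal. Cybb, the phagocyte oxidase subunit, measured 133, 373 and 1789 in deficient litters 1, 2 and 3, against 61.0, 153 and 256 in proficient ones. F13a1, a coagulation factor subunit made by monocytes, had a log2 difference of 1.08 and Ccr2, a monocyte chemokine receptor, 1.02, each higher in all 3 litters. Csf1r, the receptor for M-CSF, had 171, 425 and 354 against 141, 393 and 429, a log2 difference of 0.03, and was singled out after its values were seen. Leaving out any litter, or the litter term, left 0 calls in both target lists and also over all 22519 probe sets. The median log2 difference of the C/EBP targets was then between 1.02 and 1.39, and that of the PU.1 or IRF8 targets between 0.18 and 0.34.

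**Figure D4:**
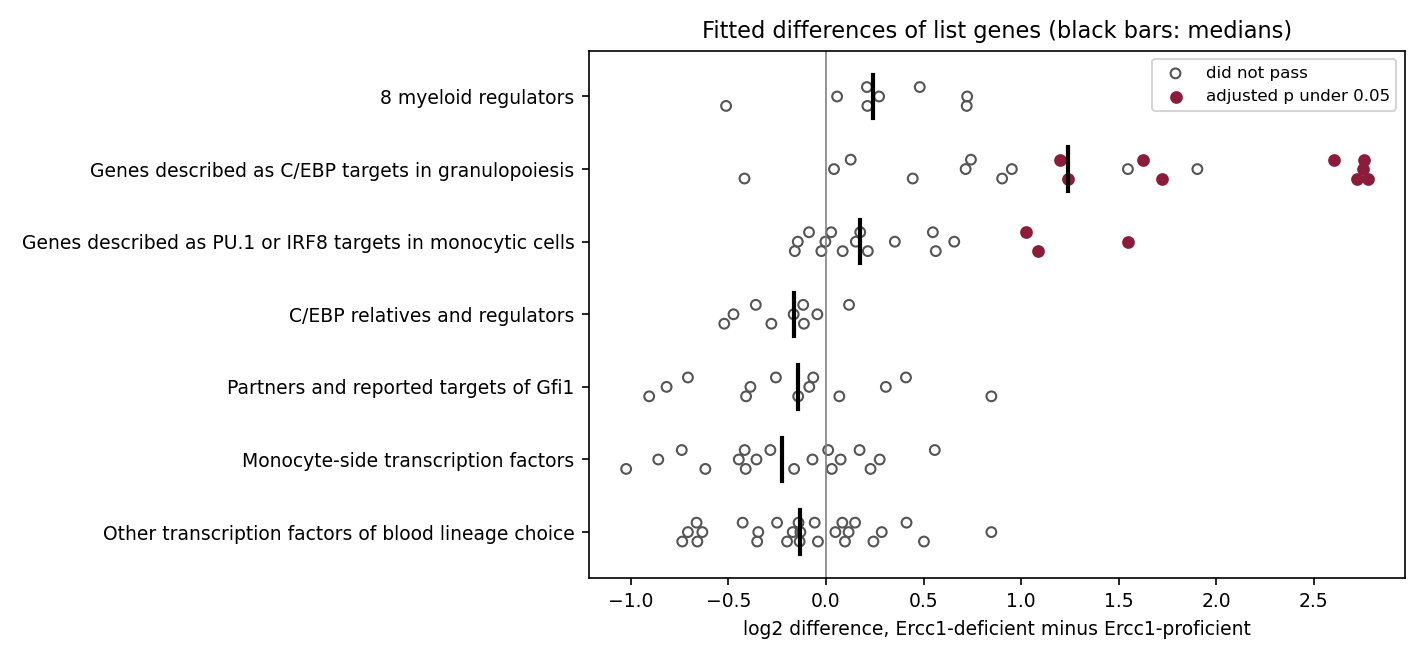
Log2 difference, Ercc1-deficient minus Ercc1-proficient, of each tested gene (brightest probe set) for the 8 regulators and 6 related gene lists; filled points passed at an adjusted p under 0.05, open ones did not, and black bars are medians. In this main fit, called genes appear among C/EBP targets (9) and PU.1 or IRF8 targets (3), and in no list of transcription factors.

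Relatives and regulators of the C/EBP proteins had 0 of 9 called, 8 of them with lower fitted values and a median of -0.17. Trib2, a pseudokinase that promotes the breakdown of C/EBPα, had signals of 51.0, 30 and 50.5 in deficient litters 1, 2 and 3, against 60.2, 67.9 and 88.8 in proficient ones. These groups did not overlap (7.19% of all tested probe sets), and the log2 difference of -0.47 did not pass (limma with litter as a block, adjusted p = 0.365). Dbp, a bZIP factor of the circadian clock, had a log2 difference of -0.52 and Fbxw7, a ubiquitin ligase subunit, one of -0.36. That of Fbxw7 came from litter 1, at -1.28, beside 0.21 in litter 2 and -0.009 in litter 3.

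Partners and reported targets of GFI1 had 0 of 13 called (1 with quantile normalization and 1 with median centring) and a median of -0.14. Hoxa9, a homeobox gene that GFI1 is known to oppose, came nearest, at 1076, 874 and 615 in deficient litters 1, 2 and 3, against 2039, 1251 and 1572 in proficient ones. The groups did not overlap (7.19% of all tested probe sets), and the log2 difference was -0.91 (limma with litter as a block, adjusted p = 0.0725). Meis1, its cofactor, had a log2 difference of -0.82, and Id2, an inhibitor of E proteins and a reported GFI1 target, one of 0.85 (adjusted p = 0.0906 in the same limma fit).

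Other transcription factors of monocytes had 0 of 18 called (1 with median centring) and a median of -0.22. Egr1, an immediate early factor of monocyte differentiation, measured 1591, 581 and 433 in deficient litters 1, 2 and 3, against 5845, 501 and 1207 in proficient ones, so litter 2 ran the other way. Irf1, a family relative of Irf8, had a log2 difference of -0.74 without overlap between groups (7.19% of all tested probe sets), and Jun, an AP-1 subunit, one of -0.86. Factors of blood lineage choice at large had 0 of 26 called (1 with median centring) and a median of -0.13. Besides Id2, those with the smallest p were Gfi1b, the erythroid and megakaryocyte paralogue of Gfi1, at -0.71, and Myc, a growth regulator, at -0.66. Gfi1b and Gfi1 thus had fitted values of opposite sign, 39.7, 62.4 and 75.6 being the Gfi1b signals in deficient litters 1, 2 and 3, against 72.6, 139.6 and 140.3 in proficient ones.

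The genes whose log2 signal was most like each regulator over the 6 arrays were sought among 10885 genes by Pearson correlation. With so few arrays, in pairs of litter mates, such likeness is a description, and the 3 nearest genes of each regulator had r between 0.961 and 0.991. For Cebpd they were Fbxo6, Gpr18 and Hp, the last of which is on the C/EBP target list. For Gfi1 they were Nt5dc1, Gata2 and Acaca, and Gata2, a stem and progenitor factor, had signals of 644, 529 and 761 in deficient litters 1, 2 and 3, against 499, 433 and 399 in proficient ones. For Cebpa they were Syngr1, Psmd1 and Lpcat2, for Cebpb Atf6b, Tada2b and Ap1s2, and for Cebpg Nsmaf, 4933427D14Rik and Ccdc171. For Irf8 they were Bex6, Tmem234 and Tor1a, for Spi1 Flot2, Slc22a15 and Cenpn, and for Klf4 Nf1, Met and Cldn7. Several of these genes lay near the floor of 30, where likeness says little. Fbxo6 was at most 43.5, Gpr18 52.5, Atf6b 50.6 and Nf1 36.4 on any array.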

How the data were processed

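Per the labels' protocols, RNA of the 6 sorted samples went through 2 rounds of linear amplification before hybridisation to Affymetrix mouse arrays. Each deposited value is a linear signal intensity, and the submitters' processing notes name MAS5. Its version, its scaling target and what set the floor of 30 are not stated there. Such amplification is biased to transcript 3′ ends, and the floor hides differences among weak genes.

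Groups came from the sample titles. Litter mates share a number per the labels, so the number paired the samples; the correlation of litter mates in their deviation from the group mean was 0.77, 0.67 and 0.46 for litters 1, 2 and 3. The p-values rest on the spread among these 6 samples alone, part of which may be technical. For each probe set, eBayes drew the spread towards that of probe sets of similar mean log2 signal. The standard errors, intervals and p-values therefore do not measure the litter spread of a gene by itself.

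The 64 control probe sets were left out. The 22519 probe sets with a mean signal at or above the median were fitted as log2(signal + 30) with limma 3.58.1 in R 4.3.3 (lmFit, eBayes with a variance trend), with group and litter as terms and Benjamini-Hochberg adjustment over all of them at 0.05. "Called", "rose" and "fell" mean past that threshold. The fit was tested on simulated data. Gene names came from GEO's platform annotation (34945 probe sets with 1 symbol), and 34741 of these matched a RefSeq table of GRCm38.p6 by Entrez identifier with 0 symbols changed.

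The named genes were all 9 regulators, Ercc1, from each of 12 lists the called genes or, where under 3 were called, the 3 of smallest p, and the 3 genes most correlated with each regulator. A gene of a list was represented by its brightest probe set. The regulators and lists were chosen with earlier results of these data known, so no list stands as independent evidence. Alternatives were the fit without litter, other normalizations, pseudocounts, filters and variance model, averaging the probe sets of a gene, and each litter left out; a filter on the mean log2 signal was added after seeing the data.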

Additional observations from a re-analysis of the deposited data

How the results depend on the processing

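The count of called probe sets among the regulators was 0 in the main fit and under all 13 alternatives to it. The nearest approach was with median centring, where the adjusted p was 0.0884 for Gfi1 and 0.0988 for the main Cebpd probe set; over all alternatives these ran up to 0.999778. Over all probe sets the count was 188 in the main fit, 71 of them higher and 117 lower. It was 0 with no replicate block, 300 with median centring (152 higher and 148 lower), 0 with no filter, 114 with no variance trend, and between 0 and 0 with a litter left out; the other alternatives stayed within 1.5 times. The cause of these changes was not tested, and leaving out a litter also leaves fewer arrays. The added filter on mean log2 signal gave 177.

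The paired analysis (replicate block) was the main fit. Taking the block away left each regulator's log2 difference as it was and moved the adjusted p of each of their 13 tested probe sets to 0.999778. Of 167 comparisons of a regulator's log2 difference with an alternative, 158 kept sign and side of the threshold. The 9 that did not were in weak or mixed probe sets. With a litter left out, the log2 difference ran between -0.18 and 0.72 for Cebpb, between -0.16 and 0.18 for the second and between -0.18 and 0 for the third Cebpg probe set, between -0.027 and 0.54 for the second Irf8 probe set, between -0.14 and 0.22 for Spi1, and for Klf4 between -0.0034 and 0.75 (main) and between -0.066 and 0.51 (second). The second Cebpg probe set was also at 0.030 with quantile normalization and 0.025 with median centring. The signs of Cebpa, both Cebpd probe sets, the main Cebpg and Irf8 ones and Gfi1 held under all alternatives run on them. Of 155 list medians, 11 moved by more than the SD between litters and 3 lay on the other side of 0 or at it. The count of LSK markers called, 2 in the main fit, was 0 with quantile normalization. Signals near the floor of 30 limit what Spi1, the third Cebpg probe set and the second Cebpb one can show.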
